A study of Homo sapiens with 9 samples.

Results

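The genes described here encode the 3 ligands of transforming growth factor beta (TGFB1, TGFB2 and TGFB3), their receptors (TGFBR1, TGFBR2 and TGFBR3) and the latent TGF-β binding proteins (LTBP1, LTBP2, LTBP3 and LTBP4). They were taken by their GENCODE release 29 symbols, which gives 10 of the 58233 gene identifiers in the count files. All 10 had enough counts to be tested among 15440 genes. The cells were UPCI-SCC-040, an established oral squamous cell carcinoma (OSCC) line of tongue origin. The 9 RNA-seq libraries formed 3 groups of 3. The treated groups had received 5 ng/ml TGF-β1 for 48 h or for 72 h, in medium that lacked both fetal bovine serum and penicillin/streptomycin. The controls had received no TGF-β1, and their titles carry a time of 0 h. Whether controls were also deprived of serum is not in the labels, so TGF-β1, loss of serum and time in culture cannot be told apart in any comparison with control. Replicates 1, 2 and 3 of every group were of passages 12, 13 and 8, in that order. All libraries came from a single cell line, and nothing beyond the passage marks replicates as separate cultures. The p-values therefore measure only the spread between these samples, which may be technical.

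TGF-β ligands are made as precursors that furin-like proteases cut into a mature dimer and a propeptide. The propeptide stays wrapped around the dimer and keeps it latent, and in most cells it is bonded to a latent TGF-β binding protein that anchors the complex in the extracellular matrix. Integrins with an αv chain, thrombospondin and proteases are known to free the ligand, which then binds TGFBR2, a kinase that phosphorylates TGFBR1, and TGFBR1 in turn phosphorylates SMAD2 and SMAD3. In squamous epithelium the pathway is known both for halting the cell cycle and, in carcinoma, for promoting migration and matrix production.

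Library totals ran from 12544690 to 20438727 counts. All 9 squamous epithelial markers averaged at least 1 CPM (read counts scaled to library size, here with TMM factors) in each group, so the squamous markers of the labelled cell type were present. Of 7 fibroblast markers, 1 reached a mean of 1 CPM in the treated groups and 0 in the controls. It was COL1A2, which averaged 6.97 CPM at 48 h and 8.36 CPM at 72 h, against 0.532 CPM in controls. Of the rest, PDGFRB had 4 counts at 48 h, 17 at 72 h and 1 in controls, and COL3A1 had 0, 10 and 1. DCN, LUM, PDGFRA and THY1 had 1, 5, 6 and 2 counts in all libraries together. The summed fibroblast markers were 0.858 to 18.2 CPM at 48 h and 1.99 to 22.4 CPM at 72 h, against 0.241 to 1.00 CPM in controls, and their part in the results below was not tested. Summed endothelial markers stayed at or under 2.78 CPM and summed leukocyte markers at or under 1.43 CPM in every library. On the first 2 principal components of log2 CPM, replicate 3 of the 72 h group lay apart from the other treated libraries, at 77.2 and -38.0. Its effect is given beside the 72 h results that turned on it.

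The 2 groups of treated cells held more mRNA of TGFB1, of the type I receptor gene TGFBR1 and of the binding protein genes LTBP2 and LTBP4 than the controls, and at 72 h less TGFB2. Calls were made with the quasi-likelihood test of edgeR at a threshold of 0.05 on p-values adjusted over all genes by the Benjamini-Hochberg method. At 48 h 5 of the 10 genes were called (TGFB1, TGFBR1, LTBP1, LTBP2 and LTBP4), and all 5 were higher. Among all 15440 genes tested, 31.0% passed at 48 h, 14.9% of all as higher and 16.0% as lower. At 72 h 5 of 10 passed again, with TGFB1, TGFBR1, LTBP2 and LTBP4 higher and TGFB2 lower, against 39.8% of all genes (20.4% higher, 19.4% lower). In 7 of 10 genes at 48 h and 5 of 10 at 72 h the 3 treated libraries lay wholly above or wholly below the controls, where 53.7% and 55.1% of all genes did not overlap at 48 h and 72 h. With 10 genes, 1 gene moves such a share by 10 percentage points, and no excess over all genes is read from these counts. Without replicate 3 of the 72 h group, 6 genes passed at 72 h, LTBP1 being added, and the changes of TGFB1, TGFB2, TGFBR1, LTBP2 and LTBP4 were 1.16, -2.16, 0.46, 1.80 and 1.23 on the log2 scale. Both comparisons used the same 3 controls. Since RNA was taken from whole cultures, less RNA per cell cannot be told apart from fewer cells that make it.

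**Figure D1:**
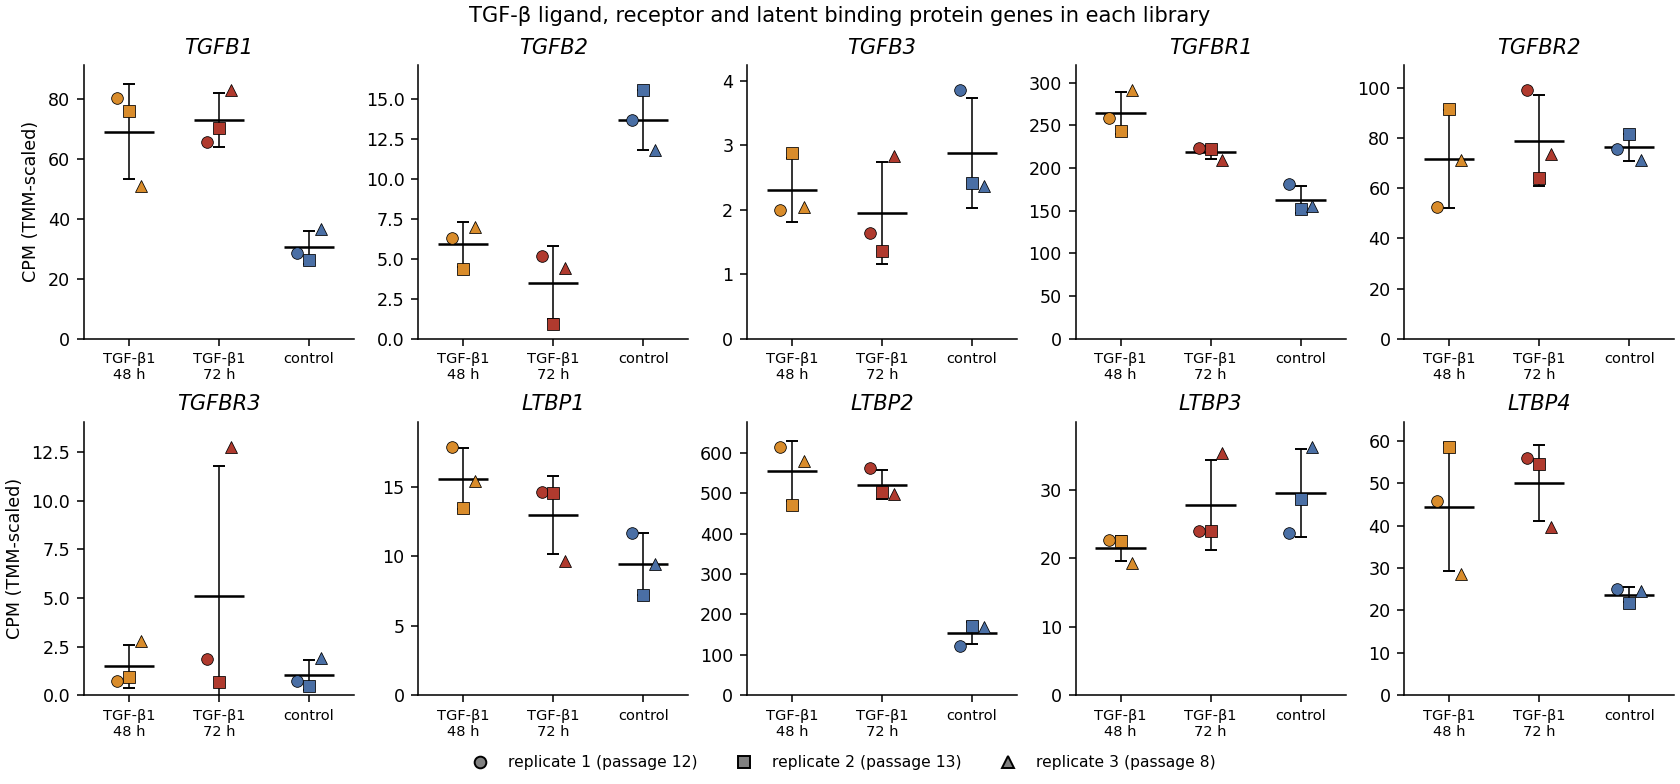
TMM-scaled CPM (vertical axes, from 0) of each gene in the 9 libraries, with TGF-β1 at 48 h and 72 h left of control; marker shape gives the replicate and passage, the bar is the mean and the whisker 1 SD (n = 3). In the LTBP2 panel the treated libraries lie at 471 to 615 CPM and the controls at 122 to 171 CPM, and in the TGFBR3 panel 1 library of the 72 h group, at 12.8 CPM, stands far above the rest.

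The promoters of the ligand gene that was higher, of the ligand gene that was lower at 72 h and of LTBP2 are shown because these genes had the clearest changes in each direction. The windows come from RefSeq on GRCh38.p14. Of the 250 bases before the RefSeq start, they show the longest stretch outside annotated exons of protein-coding genes. They are TGFB1 at chr19:41353923-41354168 (minus strand), TGFB2 at chr1:218345086-218345335 (plus strand) and LTBP2 at chr14:74612379-74612487 (minus strand), each read 5′ to 3′ along the gene. Capitals mark CAGAC (the core bound by SMADs), GGGCGG (the GC box) or TATAAA on either strand.
TGFB1: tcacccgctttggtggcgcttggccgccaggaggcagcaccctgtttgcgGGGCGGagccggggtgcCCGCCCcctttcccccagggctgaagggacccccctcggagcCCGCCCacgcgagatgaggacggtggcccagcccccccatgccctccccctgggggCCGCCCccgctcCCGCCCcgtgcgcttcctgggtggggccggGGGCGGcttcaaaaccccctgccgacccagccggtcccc
TGFB2: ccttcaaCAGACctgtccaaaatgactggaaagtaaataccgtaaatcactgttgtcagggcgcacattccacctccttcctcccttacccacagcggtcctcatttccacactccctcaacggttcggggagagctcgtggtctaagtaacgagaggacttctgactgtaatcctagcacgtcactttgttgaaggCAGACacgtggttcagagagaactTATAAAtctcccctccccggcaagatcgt
LTBP2: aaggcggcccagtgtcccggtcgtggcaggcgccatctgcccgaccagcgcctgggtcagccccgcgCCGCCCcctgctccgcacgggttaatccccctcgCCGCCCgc
TGFB1 held 6 GC boxes in its 250 bases before the start and no CAGAC. TGFB2 held no GC box, 2 CAGAC and the only TATAAA among the 10 genes. LTBP2 held 3 GC boxes, of which 1 lies in the exonic stretch that is not printed, and no CAGAC. Other genes that were higher had the motifs of TGFB2 in this respect. TGFBR1 held 1 CAGAC and no GC box, and LTBP1 (called at 48 h) held 2 CAGAC and no GC box. The GC content of the 250 bases was 76.8% for TGFB1, 50.4% for TGFB2 and 68.8% for LTBP2, where the median of all promoters was 58.0%. Of 35116 promoter windows of this length, 38.0% held CAGAC, 42.6% GGGCGG and 10.7% TATAAA, and of the 10 genes 5, 6 and 1 did. These counts took in exonic stretches, and the window of LTBP4, with 1 CAGAC and 1 GC box, lies wholly in annotated exons. The palindrome GTCTAGAC, present in 0.182% of all windows, and the AP-1 motif TGANTCA, present in 6.57%, were found in none of the 10. These matches are letters in a window and say nothing about binding. The RefSeq start used for TGFB2 lies at -899 bases from the GENCODE gene start, counted along the gene. The starts used for TGFBR3, LTBP3, LTBP4, LTBP2, TGFBR2 and TGFBR1 lie 20184, 571, 283, 141, 99 and 14 bases past the GENCODE start, inside the gene.

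Of the ligands, TGFB1 was the most abundant and was higher after treatment. TGFB1 (ENSG00000105329, chromosome 19, 41301587 to 41353911, minus strand, GRCh38) encodes the most widely made isoform, the same cytokine that was added to the medium. It was at 80.5, 76.0 and 50.9 CPM at 48 h and at 65.9, 70.4 and 83.1 CPM at 72 h (replicates 1, 2 and 3), against 28.8, 26.2 and 36.7 CPM in controls. All 6 treated libraries lay above all 3 controls, and the lowest of them was replicate 3 at 48 h. The log2 fold change was 1.18 ± 0.20 at 48 h (approximate SE, adjusted p = 0.00282) and 1.26 ± 0.20 at 72 h (adjusted p = 0.00142), or 2.27-fold and 2.39-fold higher. Within passages the log2 ratio to the control of the same passage was 1.48, 1.54 and 0.47 at 48 h and 1.20, 1.43 and 1.18 at 72 h. The call at 48 h was lost when replicate 1 (adjusted p = 0.0725) or replicate 2 (0.0604) was left out of every group, and kept in the 9 fits that left out a single library. TGFB1 shares 215 exon bases (6.64% of its exons) with HNRNPUL1 on the opposite strand, and with the strand setting of the counting not given, reads there cannot be assigned to either gene.

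TGFB2 was lower after treatment, past the threshold at 72 h. Its product differs from the other isoforms in needing betaglycan, the TGFBR3 protein, for strong binding to TGFBR2. TGFB2 (ENSG00000092969, chromosome 1, 218346235 to 218444619, plus strand) was at 6.33, 4.35 and 7.01 CPM at 48 h and at 5.19, 0.912 and 4.45 CPM at 72 h, against 13.7, 15.6 and 11.8 CPM in controls. Every treated library was below every control, and replicate 2 at 72 h, with 16 reads, was the lowest of all. At 72 h TGFB2 fell by 1.96 ± 0.49 on the log2 scale (adjusted p = 0.0123), a level 3.90-fold lower than in controls. That call was lost when replicate 1 was left out of every group (adjusted p = 0.0592) and held in the other 18 alternatives. At 48 h the log2 fold change of -1.22 ± 0.48 did not pass (adjusted p = 0.0798), but it did under DESeq2 (0.0332), without a filter on low counts (9.93e-05), with only the 2 groups in the fit (0.00231) and without replicate 2 of the 72 h group (0.00592). The 72 h group had the widest spread among its own libraries, with an SD of 1.39 in log2 CPM, against 0.20 in controls.

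TGFB3 (ENSG00000119699, chromosome 14, 75958099 to 75982991, minus strand), the isoform known for its role in palate fusion, was low in all groups. It was at 1.99, 2.88 and 2.04 CPM at 48 h and at 1.63, 1.37 and 2.84 CPM at 72 h, against 3.86, 2.42 and 2.36 CPM in controls, from 24 to 64 reads a library. The groups overlapped, and the log2 fold changes of -0.32 ± 0.35 (adjusted p = 0.509) and -0.57 ± 0.35 (adjusted p = 0.215) did not pass. Without replicate 3 of the 72 h group the change at 72 h was -0.93 (adjusted p = 0.0506).

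To compare the isoforms with each other, counts were divided by exon length, which gives CPM per kilobase. TGFB1 made up 92.6 ± 2.4% of the summed level of the 3 ligand genes at 48 h and 95.5 ± 2.2% at 72 h, against 74.0 ± 5.6% in controls (SD, n = 3 each). TGFB2 made up 5.27%, 2.88% and 21.3% of the ligand sum on average at 48 h, at 72 h and in controls. TGFB2 shares 1371 exon bases (26.6% of its exons) with TGFB2-OT1 on the same strand, which had 0 counts in all libraries together. How reads there were counted is not given, so the level and share of TGFB2 may be too low in every group. The summed ligand level was 23.0 ± 4.8 CPM per kilobase at 48 h and 23.7 ± 3.0 at 72 h, against 12.7 ± 1.3 in controls. The log2 ratio of TGFB1 to TGFB2 within a library was 4.33, 4.79 and 3.52 at 48 h and 4.33, 6.90 and 4.88 at 72 h, against 1.74, 1.42 and 2.30 in controls. The difference of 2.39 at 48 h and of 3.55 at 72 h had p = 0.1 in each case by a two-sided exact permutation test (0.2 after adjustment over 8 ratio tests), where 0.1 is the smallest p that 3 against 3 libraries allow. Treated and control libraries did not overlap in this ratio at either time.

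**Figure D2:**
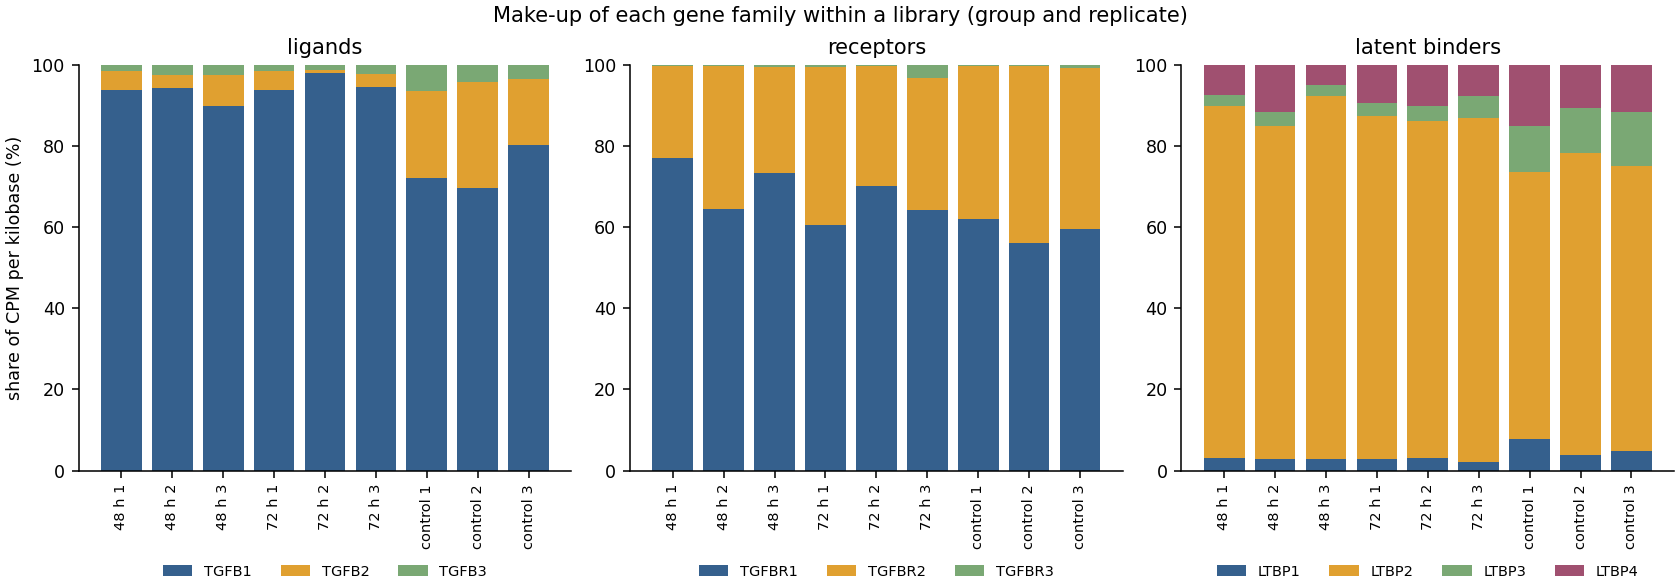
Share of each gene in the summed CPM per kilobase of its family (vertical axis, percent) in each library, with the 48 h and 72 h libraries left of the controls. In the ligand panel TGFB1 takes 89.9% to 94.3% at 48 h and 93.8% to 97.9% at 72 h, against 69.7% to 80.3% in controls, and in the panel of latent binders LTBP2 takes 82.2% to 89.4% and 83.3% to 85.0%, against 65.8% to 74.5%.

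Among the receptors, the type I receptor gene was higher after treatment and the type II receptor gene was not distinguishable from control. TGFBR1 (ENSG00000106799, chromosome 9, 99104038 to 99154192, plus strand) encodes the kinase also called ALK5, which passes the signal to SMAD2 and SMAD3. It was at 258, 244 and 291 CPM at 48 h and at 224, 222 and 210 CPM at 72 h, against 181, 152 and 155 CPM in controls. No treated library overlapped a control, and the 72 h libraries all lay below those of 48 h. TGFBR1 was 1.62-fold higher at 48 h (log2 fold change 0.70 ± 0.13, adjusted p = 0.00412) and 1.34-fold higher at 72 h (0.42 ± 0.13, adjusted p = 0.0245). At 48 h the call held without any single library and was lost when replicate 1 (0.0601) or replicate 2 (0.0534) was left out of every group. At 72 h it was lost without a filter on low counts (0.0654), without 72 h replicate 1 (0.0574) or 2 (0.0532), without control 2 (0.102) or 3 (0.0975), and without any 1 of the 3 passages.

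TGFBR2 (ENSG00000163513, chromosome 3, 30606502 to 30694142, plus strand) encodes the kinase that binds the ligand first. It was at 52.6, 91.8 and 71.2 CPM at 48 h and at 99.3, 64.2 and 73.6 CPM at 72 h, against 75.8, 81.9 and 71.4 CPM in controls. The controls lay within the range of the treated libraries at both times, and replicate 2 was the highest at 48 h and in controls, replicate 1 at 72 h. The log2 fold changes were -0.09 ± 0.21 (adjusted p = 0.782) and 0.05 ± 0.21 (adjusted p = 0.871), and their signs turned when single libraries were left out. The log2 ratio of TGFBR2 to TGFBR1 within a library was -1.75, -0.87 and -1.49 at 48 h and -0.63, -1.25 and -0.97 at 72 h, against -0.72, -0.36 and -0.58 in controls. At 48 h it was lower than in each control, by a mean of -0.82 (exact permutation p = 0.1, adjusted 0.2), and at 72 h the difference of -0.40 came with overlapping groups (exact p = 0.2, adjusted 0.267) and was -0.25 without 72 h replicate 2.

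TGFBR3 (ENSG00000069702, chromosome 1, 91680343 to 91906335, minus strand) encodes betaglycan, a co-receptor with no kinase domain. Its counts were low, from 9 to 207 reads a library. It was at 0.748, 0.919 and 2.77 CPM at 48 h and at 1.86, 0.684 and 12.8 CPM at 72 h, against 0.723, 0.483 and 1.93 CPM in controls. In every group replicate 3, of passage 8, was the highest, and replicate 3 at 72 h stood far above the other 8 libraries. Against the control of the same passage, the log2 ratio was 0.05, 0.93 and 0.52 at 48 h and 1.36, 0.50 and 2.72 at 72 h. The log2 fold change was 0.48 ± 1.12 at 48 h (adjusted p = 0.774) and 2.31 ± 1.07 at 72 h (adjusted p = 0.118). With the passage as a replicate block the 72 h change was 1.80 and passed (adjusted p = 0.0163), as it did under DESeq2 (0.0330) and without 72 h replicate 2 (0.0440). Without 72 h replicate 3 it was 0.33 (adjusted p = 0.755), so the size of the change rests on that library. The log2 ratio of TGFBR3 to TGFBR2 within a library differed by 0.60 at 48 h (exact permutation p = 0.5, adjusted 0.5) and by 1.48 at 72 h (exact p = 0.4, adjusted 0.457), with overlapping groups. These tests did not pair passages, and in every treated library this ratio was above that of the control of its passage. The 48 h difference was 0.044 without 48 h replicate 3, 0.13 without control 2, 1.01 without 48 h replicate 2 and 1.21 without control 3. The 72 h difference was 0.28 without 72 h replicate 3 and 2.27 without 72 h replicate 2.

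By level per length, TGFBR1 made up 71.6 ± 6.4% of the summed receptor level at 48 h and 65.0 ± 4.9% at 72 h, against 59.2 ± 3.0% in controls (SD, n = 3 each). TGFBR2 made up nearly all the rest. TGFBR3 made up 0.175%, 0.191% and 0.549% at 48 h and 0.396%, 0.17% and 3.08% at 72 h, against 0.195%, 0.14% and 0.584% in controls. Its 72 h mean of 1.21% rests on replicate 3, since the other two 72 h libraries lay within the range of the controls. The summed receptor level was 54.1 ± 4.6 CPM per kilobase at 48 h and 49.3 ± 4.1 at 72 h, against 40.2 ± 2.4 in controls.

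The latent binding protein genes held the largest rise of the family that passed the test. LTBP2 (ENSG00000119681, chromosome 14, 74498170 to 74612378, minus strand) encodes the member that, unlike the others, is known not to bond to latent TGF-β and sits on fibrillin microfibrils. It was at 615, 471 and 579 CPM at 48 h and at 563, 502 and 498 CPM at 72 h, against 122, 171 and 168 CPM in controls. Every treated library lay far above the highest control, and the treated groups overlapped each other. The log2 fold change was 1.85 ± 0.18 at 48 h (adjusted p = 0.000447) and 1.76 ± 0.18 at 72 h (adjusted p = 0.000294), or 3.61-fold and 3.39-fold higher. The call held in all 19 alternatives at both times. Of the 15440 genes tested, 509 had a larger log2 fold change at 48 h and 811 at 72 h. LTBP2 shares 207 exon bases with the lincRNA AC013451.1 on the opposite strand, which had 27 counts in all libraries together, against 61557 for LTBP2.

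LTBP4 (ENSG00000090006, chromosome 19, 40592883 to 40629818, plus strand) encodes a binder known for its part in elastic fibre assembly, with some capacity to carry latent TGF-β1. It was at 45.7, 58.6 and 28.6 CPM at 48 h and at 56.0, 54.5 and 39.8 CPM at 72 h, against 25.0, 21.6 and 24.5 CPM in controls. The treated libraries lay above all controls, with replicate 3 closest to them at each time. LTBP4 rose by 0.91 ± 0.24 at 48 h (log2, adjusted p = 0.0193) and by 1.08 ± 0.24 at 72 h (adjusted p = 0.00684). At 48 h the adjusted p was 0.0613 without 48 h replicate 1, 0.0618 without 48 h replicate 2, and 0.0557, 0.0769 and 0.0571 without control 1, 2 and 3, and it was 0.160 and 0.189 without the libraries of replicate 1 and of replicate 2. At 72 h it stayed at or under 0.0339 without any single library, and was 0.0886 and 0.0596 without the libraries of replicate 1 and of replicate 2.

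LTBP1 (ENSG00000049323, chromosome 2, 32946972 to 33399509, plus strand) encodes a carrier of latent TGF-β that binds all 3 isoforms. It was at 17.9, 13.5 and 15.4 CPM at 48 h and at 14.7, 14.6 and 9.70 CPM at 72 h, against 11.7, 7.20 and 9.46 CPM in controls. The 48 h libraries lay above the controls, and the 72 h libraries overlapped them through replicate 3. LTBP1 rose by 0.72 ± 0.23 at 48 h (log2, adjusted p = 0.0383). That call was lost without 48 h replicate 1 (0.131) or 3 (0.0794) and without control 2 (0.142) or 3 (0.102), and also without any 1 of the 3 passages. At 72 h the change of 0.46 ± 0.23 did not pass (adjusted p = 0.137), and without replicate 3 of the 72 h group it was 0.64 and passed (0.0391).

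LTBP3 (ENSG00000168056, chromosome 11, 65538805 to 65558930, minus strand) encodes a carrier much like LTBP1 in its binding. It was at 22.6, 22.5 and 19.4 CPM at 48 h and at 24.1, 24.0 and 35.3 CPM at 72 h, against 23.7, 28.7 and 36.3 CPM in controls. The 48 h libraries were just below the lowest control, and the 72 h libraries overlapped the controls. Neither change passed, at -0.46 ± 0.20 at 48 h (adjusted p = 0.111) and -0.09 ± 0.20 at 72 h (adjusted p = 0.750), though the 48 h change did without replicate 3 of the 72 h group (0.0467), where the 72 h change was -0.29 (0.230). The log2 ratio of LTBP1 to LTBP3 within a library was 0.15, -0.25 and 0.16 at 48 h and -0.22, -0.23 and -1.37 at 72 h, against -0.53, -1.50 and -1.45 in controls. The difference was 1.18 at 48 h (exact permutation p = 0.1, adjusted 0.2), with no overlap of the groups, and 0.55 at 72 h (exact p = 0.2, adjusted 0.267). The 72 h difference was 0.93 without 72 h replicate 3 and 0.87 without control 1, and 0.36 without 72 h replicate 1 or 2.

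**Figure D3:**
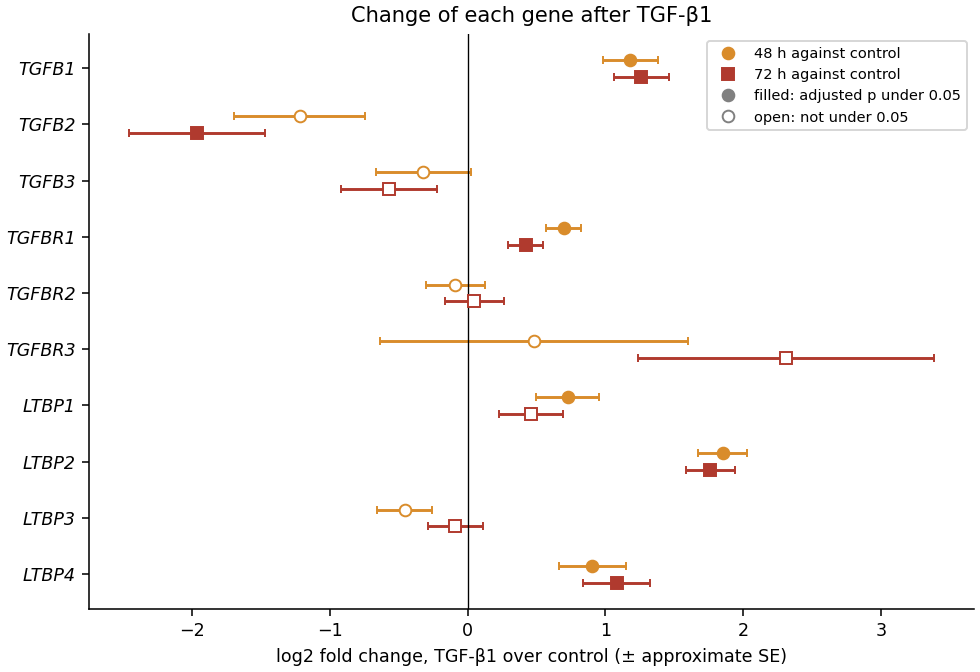
Log2 fold change (horizontal axis) of each gene after TGF-β1 over control, with 48 h as circles above 72 h as squares and whiskers of 1 approximate SE; filled symbols passed an adjusted p of 0.05. LTBP2 at 1.85 and 1.76 lies farthest to the right among the filled symbols, TGFB2 at 72 h is the only filled symbol left of 0, and TGFBR3 has the longest whiskers.

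The summed level of the 4 binder genes was 70.7 ± 7.4 CPM per kilobase at 48 h and 68.0 ± 4.6 at 72 h, against 24.0 ± 3.2 in controls (SD, n = 3 each). LTBP2 made up 86.1 ± 3.7% of that sum at 48 h and 84.3 ± 0.9% at 72 h, against 70.2 ± 4.4% in controls. The binders known to carry latent TGF-β were at smaller shares, with LTBP3 at 2.98% at 48 h and 4.01% at 72 h, against 11.9% in controls, and LTBP1 at 3.00% and 2.60%, against 5.53%. A lower share is not a lower level, since LTBP1 itself rose at 48 h.

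By level per kilobase of exon, LTBP2 had the highest mean of the 10 genes in treated cells, at 61.1 at 48 h and 57.3 at 72 h, followed by TGFBR1 at 38.6 and 31.9 with no overlap. In controls TGFBR1 led at 23.8 CPM per kilobase, and LTBP2 at 16.9 and TGFBR2 at 16.2 followed with overlapping ranges. TGFB1 was at 21.4 at 48 h and 22.6 at 72 h, in ranges that overlapped those of TGFBR2 at 15.3 and 16.8, and at 9.43 in controls, below TGFBR2. LTBP4 came next in each group, at 5.47 and 6.18, against 2.92. In the controls the ranges of LTBP4, LTBP3 and TGFB2 overlapped, at means of 2.92, 2.87 and 2.66. TGFB2, at 1.1 at 48 h and 0.682 at 72 h, lay below LTBP1 and LTBP3 in treated cells. TGFB3 and TGFBR3 had the lowest means in each group, and at 72 h their ranges overlapped that of TGFB2. The exon length is the union over annotated transcripts, such as 10298 bases for LTBP3 and 3238 for TGFB1. A gene whose transcripts use only part of that union comes out too low, so close orders between genes are uncertain.

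**Figure D4:**
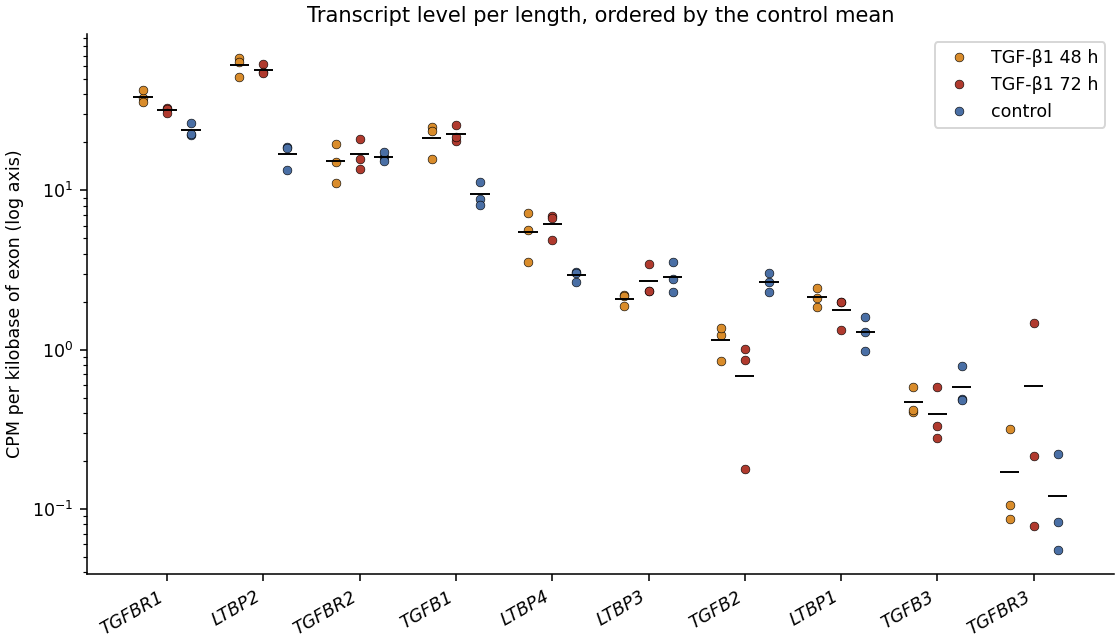
Level of each gene as TMM-scaled CPM per kilobase of exon (vertical axis, log scale) in each library, ordered by the control mean, with 48 h and 72 h left of control; points are libraries and bars group means. TGFBR1 stands highest in controls at 23.8 and LTBP2 in treated cells at 61.1 and 57.3.

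Between 72 h and 48 h no difference was called in any of the 10 genes, nor in any of the 15440 genes (0%), of which 1382 (8.95%) had an unadjusted p under 0.05. DESeq2 called 41 genes and the fit without a filter on low counts 211. The largest change between the times among the 10 genes was that of TGFBR3, at 1.83 ± 1.04 on the log2 scale (adjusted p = 0.611), and it was -0.15 without 72 h replicate 3. TGFBR1 was lower in each 72 h library than in each 48 h library, though the difference of -0.27 ± 0.13 (log2) did not pass, at an adjusted p of 0.562. LTBP3 was higher in each, where 0.37 ± 0.20 (log2) did not pass either, at an adjusted p of 0.596. In 12.2% of all genes the libraries of the 2 times did not overlap.

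Genes whose products act on the ligands and receptors were read from 5 lists by role, with 1 further list of known TGF-β responders. The lists were chosen with earlier results of these data known, so the responders are not an independent check of the treatment. Most of the responders passed the test in the treated cells. PMEPA1, which dampens SMAD signalling, was at 667 ± 113 CPM at 48 h and 505 ± 123 CPM at 72 h, against 188 ± 11.5 CPM in controls (log2 fold change 1.83, adjusted p = 0.000666, and 1.42, adjusted p = 0.00102). SKIL, another negative regulator of SMADs, rose by 1.01 on the log2 scale at 48 h and 0.65 at 72 h (adjusted p = 0.00389 and 0.0182). The matrix gene TGFBI rose by 1.87 at 48 h and 1.70 at 72 h (adjusted p = 0.00529 and 0.00562). The median log2 fold change of the 14 responders tested was 1.62 at 48 h and 1.49 at 72 h, where the median of all genes was -0.0019 and 0.0326. Of the 14, 10 were higher and 3 lower at each time, where 31.0% and 39.8% of all genes were called at 48 h and 72 h. The exception was CTGF, the connective tissue growth factor gene and a classical target, with log2 fold changes of 0.62 and -0.22 (adjusted p = 0.392 and 0.758). The list holds LTBP2 itself. The 3 lower genes were ID1, ID2 and ID3, which TGF-β is known to repress in epithelial cells. CTGF and the ID genes were named after their values were seen. Without the libraries of replicate 1, 7 responders passed at 48 h and 8 at 72 h.

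Among genes for the release of latent TGF-β, most calls were higher. Of 18 on the list 15 were tested, of which 8 were higher and none lower at 48 h, and 9 higher and 1 lower at 72 h, where 14.9% and 20.4% of all genes were higher at 48 h and 72 h. The median log2 fold changes were 1.01 and 1.33. Without replicate 3 of the 72 h group 9 were higher and none lower at 72 h, and the median was 0.82. ITGB6, whose product pairs with the αv chain and frees TGF-β1 and TGF-β3 in epithelia, was at 465 ± 222 CPM at 48 h and 434 ± 313 CPM at 72 h, against 74.0 ± 13.6 CPM in controls (log2 fold change 2.65, adjusted p = 0.00835, and 2.55, adjusted p = 0.00694). ITGAV, the αv chain, rose by 2.21 and 2.19 (adjusted p = 0.0253 and 0.0209). Its treated spread was wide, at 2038 ± 1185 CPM at 48 h and 2006 ± 1712 CPM at 72 h, against 440 ± 27.8 CPM in controls. ITGB5, another partner of the αv chain, rose by 1.28 and 1.72 (0.00372 and 0.000795). ITGB8, which also pairs with αv, had changes of 1.84 and 1.67 that did not pass (0.0787 and 0.0880).

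The proteases of the list and the thrombospondin gene THBS1 did not move alike. MMP14, a membrane-bound protease, was at 663 ± 105 CPM at 48 h and 890 ± 267 CPM at 72 h, against 192 ± 16.3 CPM in controls (log2 fold change 1.79, adjusted p = 0.000994, and 2.21, adjusted p = 0.000322). MMP2, a gelatinase that MMP14 activates, rose by 1.82 and 2.29 (0.000702 and 0.000223), and BMP1, which is known to cut LTBP1, by 0.76 and 0.96 (0.00677 and 0.00174). FURIN, which cuts the TGF-β precursor, rose by 0.65 and 0.80 (0.0128 and 0.00404). THBS1, which encodes the activator thrombospondin 1, had log2 fold changes of -0.31 and -0.72 that did not pass (adjusted p = 0.615 and 0.206). PLAU, or urokinase, rose by 1.44 and 1.46 (0.00525 and 0.00355), and PLAT, its tissue-type relative, had a change of 1.01 at 48 h that did not pass (0.0749) and rose by 1.33 at 72 h (0.0215). MMP9, another gelatinase, had changes of -0.29 and 0.10 (0.767 and 0.914), and PCSK6, a furin relative, of -0.30 and -0.17 (0.228 and 0.469), which did not pass. PCSK5, also a furin relative, was the 1 lower gene at 72 h, at -1.54 (adjusted p = 0.0334), after -1.37 at 48 h (0.0606). PCSK5 had only 83 counts in all libraries together, at means of 0.381 CPM at 48 h and 0.332 CPM at 72 h, against 0.978 CPM in controls. Its call was lost without 48 h replicate 1, 72 h replicate 1 or 3, or any single control. PLAU, PLAT, MMP9, PCSK6 and PCSK5 were named after their values were seen. Without the libraries of replicate 1 the list had 2 calls at 48 h and 4 at 72 h, and without those of replicate 2 it had 4 at 48 h.

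In the matrix scaffold on which latent complexes are stored, calls were made for TGM2 and FBN1 at both times and for MFAP2 at 48 h. Of 13 genes on the list 7 were tested, 3 of them higher at 48 h and 2 at 72 h, with none lower, where 31.0% and 39.8% of all genes were called in either direction. The medians were 0.71 and 1.02, and that at 72 h was 0.59 without 72 h replicate 1. TGM2, the transglutaminase that crosslinks LTBP1 to the matrix, was at 10.2 ± 4.2 CPM at 48 h and 8.08 ± 1.26 CPM at 72 h, against 1.43 ± 0.91 CPM in controls (log2 fold change 2.86, adjusted p = 0.00235, and 2.52, adjusted p = 0.00261). FBN1, the fibrillin to which the binders attach, rose by 1.59 and 1.65 (0.0145 and 0.00917) at means of 6.79 and 7.03 CPM, against 2.25 CPM. FN1, or fibronectin, had changes of 2.48 and 2.47 that did not pass (0.0852 and 0.0737), with a control SD of 25.6 CPM around a mean of 24.3 CPM. MFAP2, a microfibril glycoprotein, rose at 48 h by 0.71 (0.0389) and had a change of 0.62 at 72 h (0.0519). FBN2 and FBLN5 had too few counts to be tested. The 48 h count was 1 without control 1 or control 2 and 0 when replicate 1 or replicate 2 was left out of every group, and the 72 h count was 5 with the replicate block, 4 without replicate 3 of either treated group, and 1 when replicate 1 or replicate 2 was left out of every group.

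Among co-receptors and regulators of the receptors, calls were made in both directions. Of 21 tested, 2 were higher and 3 lower at 48 h, and 4 higher and 4 lower at 72 h, where 31.0% and 39.8% of all genes were called, so nothing particular to the list is read from these counts. The medians were 0.13 and 0.11, and that at 72 h ran from -0.03 to 0.22 when libraries were left out. Without 72 h replicate 3 the 72 h median was -0.03, with 4 higher and 3 lower. UCHL5, a deubiquitinase that stabilises TGFBR1, fell by 0.97 and 1.02 on the log2 scale (adjusted p = 0.00578 and 0.00318). TGFBRAP1, a protein that associates with the receptors, fell by 0.65 and 0.60 (0.00331 and 0.00311). CD109, a membrane protein that restrains TGF-β signalling in keratinocytes, rose at 48 h by 0.72 (0.0396). At 72 h SMURF2, a ubiquitin ligase that targets the receptors, rose by 1.15 (0.0246), ADAM17, a sheddase of TGFBR1, by 0.60 (0.0194) and ZFYVE9, the SMAD anchor SARA, by 0.40 (0.0353). ENG, BAMBI, NRP1 and CAV1 passed at neither time, with log2 fold changes from -0.48 to 0.78. The other calls were SNX25 (higher at both times), PPP1R15A (lower at both) and NEDD4L (lower at 72 h), named after their values were seen. The 48 h count was 3 without 48 h replicate 1, control 1 or control 3, 8 without 72 h replicate 3, and 1 when replicate 1 or replicate 2 was left out of every group. The 72 h count was 5 without 72 h replicate 2 or control 3 and 4 without control 1 or control 2. Without any single control the higher calls at 72 h numbered 1, and without replicate 2 in every group the 72 h count was 2.

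Of the other type I and type II receptors of the family, 8 of 10 were tested, and 3 were higher at 48 h and 4 at 72 h, with none lower and medians of 0.39 and 0.45. Among all genes 14.9% and 20.4% were higher, and with 8 genes no excess is read from these counts. ACVR1, the type I receptor ALK2, was at 27.7 ± 4.1 CPM at 48 h and 30.6 ± 11.9 CPM at 72 h, against 11.0 ± 0.0345 CPM in controls (log2 fold change 1.33, adjusted p = 0.00426, and 1.48, adjusted p = 0.00186). BMPR2, the type II receptor for bone morphogenetic proteins, rose by 1.23 and 0.83 (0.000767 and 0.00215). BMPR1B (at both times) and ACVR1B (at 72 h) were the remaining calls and were named after their values were seen. At 48 h 4 were higher and 1 lower without 72 h replicate 3, and 1 was higher when replicate 1 was left out of every group. The 72 h count was 3 without 72 h replicate 3, and 2 without control 2 or when replicate 2 was left out of every group.

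Of 8 SMAD genes 7 were tested, and at each time 1 was higher and 1 lower, where 31.0% and 39.8% of all genes were called. SMAD3, which the activated TGFBR1 phosphorylates, fell to 38.3 ± 11.5 CPM at 48 h and 29.9 ± 2.3 CPM at 72 h, against 72.9 ± 5.6 CPM in controls (log2 fold change -0.93, adjusted p = 0.00653, and -1.29, adjusted p = 0.00118), and its 48 h call was lost when replicate 2 was left out of every group. SMAD7, the inhibitory SMAD that brings ubiquitin ligases to TGFBR1, was at 168 ± 12.9 CPM at 48 h and 147 ± 21.1 CPM at 72 h, against 78.2 ± 10.6 CPM in controls (1.11, adjusted p = 0.00127, and 0.91, adjusted p = 0.0018). SMAD2 and SMAD4, the other transducers of this branch, had log2 fold changes of 0.03 to 0.17 that did not pass. These lists were described by their counts, and none was tested as a set.

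**Figure D5:**
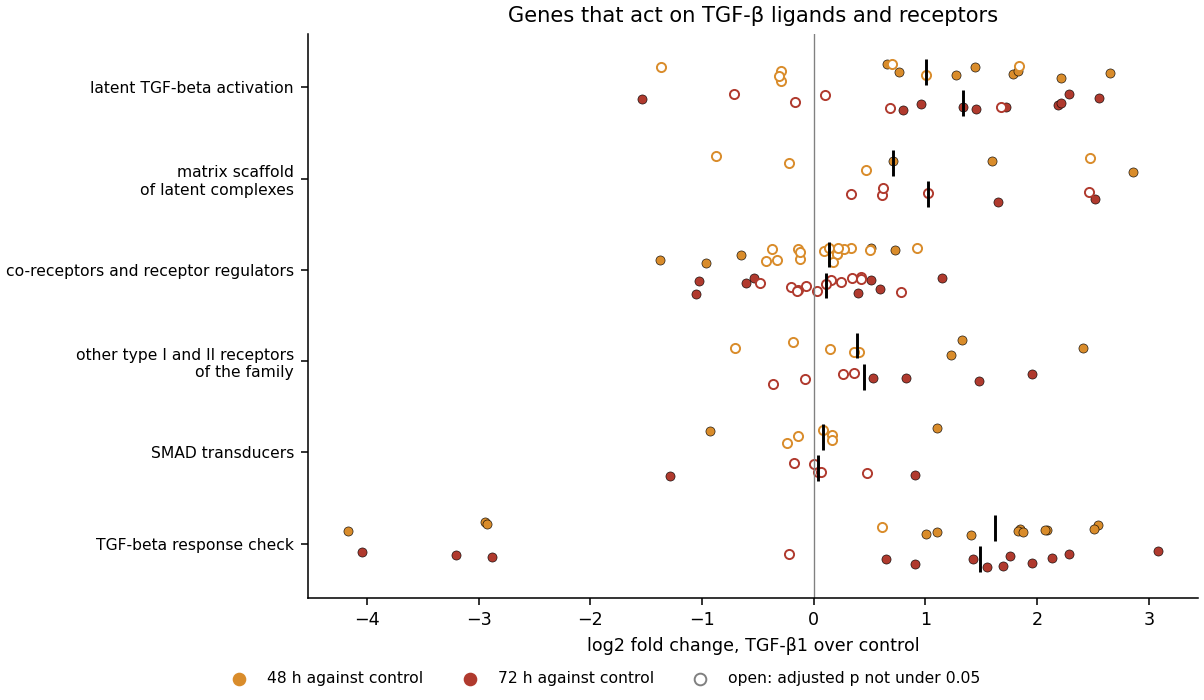
Log2 fold change over control (horizontal axis) of each tested gene in 6 lists, with 48 h above 72 h; filled points passed an adjusted p of 0.05 and vertical bars are list medians. The activation genes lie mostly right of 0, with medians of 1.01 and 1.33 (0.82 at 72 h without replicate 3 of that group), whereas the co-receptors and regulators lie on both sides, with medians of 0.13 and 0.11.

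For the most abundant gene of each kind, the genes with the most similar pattern of log2 CPM over the 9 libraries were ranked among 13486 genes by Pearson's r, as a description. For TGFB1 they were LRRC14 (r = 0.986), GALNS (0.984) and KIFC2 (0.983). For TGFBR1 they were FAM69A (0.988), LIMS1 (0.976) and NSUN7 (0.974), and for LTBP2 WNT7A (0.987), PPARA (0.987) and SENP5 (0.986). The libraries share treatment groups and passages. After removal of the group means, r was 0.903, 0.885 and 0.875 for the TGFB1 set and 0.983, 0.756 and 0.935 for the TGFBR1 set. It was lower for the LTBP2 set, at 0.660, 0.548 and 0.634.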

How the data were processed

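Read counts per gene were deposited for 9 RNA-seq libraries of UPCI-SCC-040. Per the labels' protocols, a silica column kit gave the RNA and a NEBNext Ultra kit the libraries. The deposited values are raw counts without any normalization. The submitters' processing notes name build hg38 and the tools STAR 2.5.2a and featureCounts 1.5.0-p1, besides bcl2fastq and FastQC. What annotation release and strand setting applied, and how reads with more than 1 alignment were treated, is not given in the sources used here, so overlapping genes may share or lose reads. GENCODE 29 supplied symbols, coordinates and exon lengths for 57895 of the 58233 identifiers.

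Groups, replicates and passages follow the labels. A robust quasi-likelihood model in edgeR 4.0.16 (R 4.3.3) was fitted to all 9 libraries after TMM scaling and filterByExpr, with 6 residual degrees of freedom, and p-values were adjusted by Benjamini-Hochberg over all tested genes at 0.05. The fit was also run on simulated counts, with far fewer changed genes than were called against control here and no passage effects. That run does not show how well the calls in these data hold. Library totals of 12544690 to 20438727 counts limit the precision of genes with few reads. Replicates differed by more than sampling noise (chi-square per degree of freedom between 8.99 and 159, for genes of 20 counts or more). None was a copy. CPM was computed on TMM-scaled totals and divided by union exon length to give CPM per kilobase. The approximate SE is the size of the log2 fold change divided by √F. Ratios of counts per kilobase, with a pseudocount of 0.5, were compared by two-sided exact permutation tests. Promoter windows came from RefSeq (GRCh38.p14), at the start nearest the GENCODE start, and all 10 genes matched.

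The members and gene lists were chosen with earlier results of these data known. All 10 genes were named. From the lists, genes were named by role, with up to 2 more per list by the smallest p at 72 h, and a few of these are not reported here by name. Likeness was ranked on log2(CPM + 0.5) among genes with a mean of at least 1 CPM, and the 3 most alike were named.

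The labels give same-numbered libraries the same passage, which is where the pairing comes from. As a check, replicates 1, 2 and 3 deviated from their group means with correlations of 0.11, 0.08 and 0.12 between 48 h and control, 0.04, 0.11 and 0.10 between 72 h and control, and -0.03, 0.49 and 0.49 between 72 h and 48 h. The alternatives were DESeq2 1.42.0, DESeq2 or upper-quartile scaling inside edgeR, no filter on low counts, at least 1 CPM in 3 libraries, the replicate block (4 residual degrees of freedom), a fit of 2 groups at a time, a pseudocount of 5 for ratios, and leaving out single libraries or whole replicate numbers. For the lists, the counts without each library and with the block were chosen after seeing the data.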

Additional observations from a re-analysis of the deposited data

How the results depend on the processing

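At 48 h against control, the count of all genes called lay between 765 and 6289 and that of the 10 genes between 1 and 6 when a library or a replicate number was left out, against 4779 and 5 in the full fit. At 72 h against control these ranges were 2602 to 6184 genes and 2 to 6 of the 10, against 6152 and 5. Only LTBP2 was called in every one of the 19 alternatives at 48 h, and only LTBP2 and TGFB1 at 72 h. Omissions leave fewer samples, and the low ends came from leaving out a whole replicate number. Between 72 h and 48 h, DESeq2 called 41 genes and the fit without a filter on low counts 211, against 0, and none of the 10 genes; the cause was not tested.

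With the replicate block, 5113 genes were called at 48 h, 6465 at 72 h and 0 between the times, and 5, 6 and 0 of the 10 genes. It changed the call of TGFBR3 at 72 h and, of the other 9 genes, none. The ratio tests with paired passages gave p of 0.25 to 0.5, where 0.25 is the smallest 3 pairs allow.

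Reversed signs arose when libraries were left out, in log2 fold changes that did not pass. Over these omissions the change of TGFB3 at 48 h ran from -0.61 to 0.047, that of TGFBR2 from -0.30 to 0.10 and that of TGFBR3 from -0.30 to 1.24. At 72 h against control TGFBR2 ran from -0.16 to 0.23 and LTBP3 from -0.29 to 0.080. At 72 h against 48 h TGFB1 ran from -0.20 to 0.27, TGFB3 from -0.69 to 0.12, TGFBR2 from -0.25 to 0.46, TGFBR3 from -0.15 to 2.60 and LTBP4 from -0.057 to 0.43. The scalings tried moved the median of all genes by less than 0.1 on the log2 scale. TGFBR3, TGFB3 and, at 72 h, TGFB2 rest on few reads, which limits what can be said of them.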
